A study of Mus musculus with 4 samples.

Results

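Type I interferon-stimulated genes were followed in intestinal stem cells (ISCs) of young and old mice. The 35 genes were chosen by name, as genes whose transcription is classically induced by type I interferon, and each was found as 1 row among the 52459 genes of the count table. The libraries came from wild-type C57/Bl6 mice, females per the study's methods, with no treatment and no transgene named. Small intestinal crypts were dissociated and ISCs were sorted as EPCAM+ cells with high EPHB2 and CD44 and low GRP78, without the endothelial marker CD31 or the leukocyte marker CD45. The young group, ISC_2mth, held 2 libraries from mice of 2 months, and the old group, ISC_22mth, held 2 libraries from mice of 22 months. Each library was made from the pooled cells of 5 animals, so differences between animals within a pool cannot be seen, and p-values measure only the spread between these pools.

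Type I interferons bind a receptor of the IFNAR1 and IFNAR2 chains, whose kinases JAK1 and TYK2 phosphorylate STAT factors, STAT2 among them. The phosphorylated factors join IRF9 and bind interferon response elements in the promoters of a large set of genes, many of which encode proteins that sense, degrade or trap viral nucleic acid and particles. Stem cells of several kinds are known to express part of this antiviral programme without infection, and gut epithelial cells also respond to the related interferon lambda.

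Total counts lay between 11662654 and 15975698 per library. Mitochondrially encoded genes made up 62.6% and 65.7% of them in the young pools and 73.8% and 72.9% in the old pools. That left between 3852178 and 4593004 counts per library for the rest. A count of 0 in a library allowed a level of up to between 0.198 and 0.245 CPM (read counts scaled to library size by TMM), and such limits cover counting error only. All 10 ISC markers passed the filter and none was called between the ages, while 4 of 10 enterocyte, 2 of 6 Paneth, 1 of 7 tuft, 1 of 24 leukocyte and 1 of 5 sorting markers were called. The ISC markers nearest to a call were Axin2 (log2 fold change -0.46, FDR = 0.051) and Rnf43 (-0.41, FDR = 0.088), by edgeR's quasi-likelihood test. The study listed both as lower in old ISCs. The ISC markers summed to 2221 and 2063 CPM in the young pools and 1877 and 2061 CPM in the old pools, most of it from Olfm4. Markers of Paneth cells, the antimicrobial neighbours of ISCs at the crypt base, summed to 924 and 714 CPM in the young pools, 2058 CPM in ISC_22mth replicate 1 and 799 CPM in ISC_22mth replicate 2. Enterocyte markers summed to 427 and 534 CPM in the young pools and to 963 and 796 CPM in the old pools, goblet cell markers to 1942 and 2559 against 2653 and 2065 CPM, and tuft cell markers to 3.03 and 4.96 against 8.99 and 5.32 CPM. Of 24 leukocyte markers, 7 (among them Cd3g, Cd79a, Itgax, Adgre1, Siglech and Tyrobp) were at 0 in all 4 libraries, 2 passed the filter, and the list summed to 16.7 and 17.6 CPM in the young pools and 24.9 and 23.7 CPM in the old pools, most of it from Itgam.

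The interferon-stimulated genes were higher mainly in 1 of the 2 old pools, ISC_22mth replicate 1. That library held the highest level of the 4 for 32 of the 35 genes, a pattern found for 25.3% of the 13692 genes that passed the filter (above 5 reads and above 1 CPM of the unnormalized library total, without TMM, in any library). Scaled to total counts instead, which moved the median change over all genes to -0.49 (log2), it was the highest for 23 of the 35. The share over all genes under that scaling is not given here, so the 25.3% is not its background. Against the mean of the young pools, 17 of the 35 genes were more than 2-fold higher in ISC_22mth replicate 1 (2.82% of all genes) and 3 were in ISC_22mth replicate 2 (2.47% of all genes). The median difference in log2 CPM from the young mean, computed with a prior count of 2, was 0.91 over the 35 genes in ISC_22mth replicate 1 and -0.04 in ISC_22mth replicate 2, beside -0.00 and 0.00 over all genes.

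Because a gene could pass the filter through ISC_22mth replicate 1 alone, the genes that passed were not taken as a fair sample. Of the 35, 29 passed, 21 of them in at least 1 young library, 8 in old libraries only and 7 of those in ISC_22mth replicate 1 only. Among the 21 genes seen in a young library, 19 were highest in ISC_22mth replicate 1 and the median difference from the young mean was 0.68 there and 0.02 in ISC_22mth replicate 2. The pattern was therefore also present in the genes that the old pools had not brought into the test. All 6 Paneth cell markers and all 10 enterocyte markers were likewise highest in ISC_22mth replicate 1, as were 4 of 7 tuft cell markers, 2 of 7 goblet cell markers, 1 of 7 enteroendocrine cell markers, 7 of 24 leukocyte markers, 1 of 10 endothelial and stromal markers, 1 of 10 ISC markers and 0 of 5 sorting markers. Their part in the result was not tested. In bulk RNA, a higher level in a few cells and a slightly higher level in all cells cannot be told apart, nor can fewer cells of a type and less RNA per cell.

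**Figure D1:**
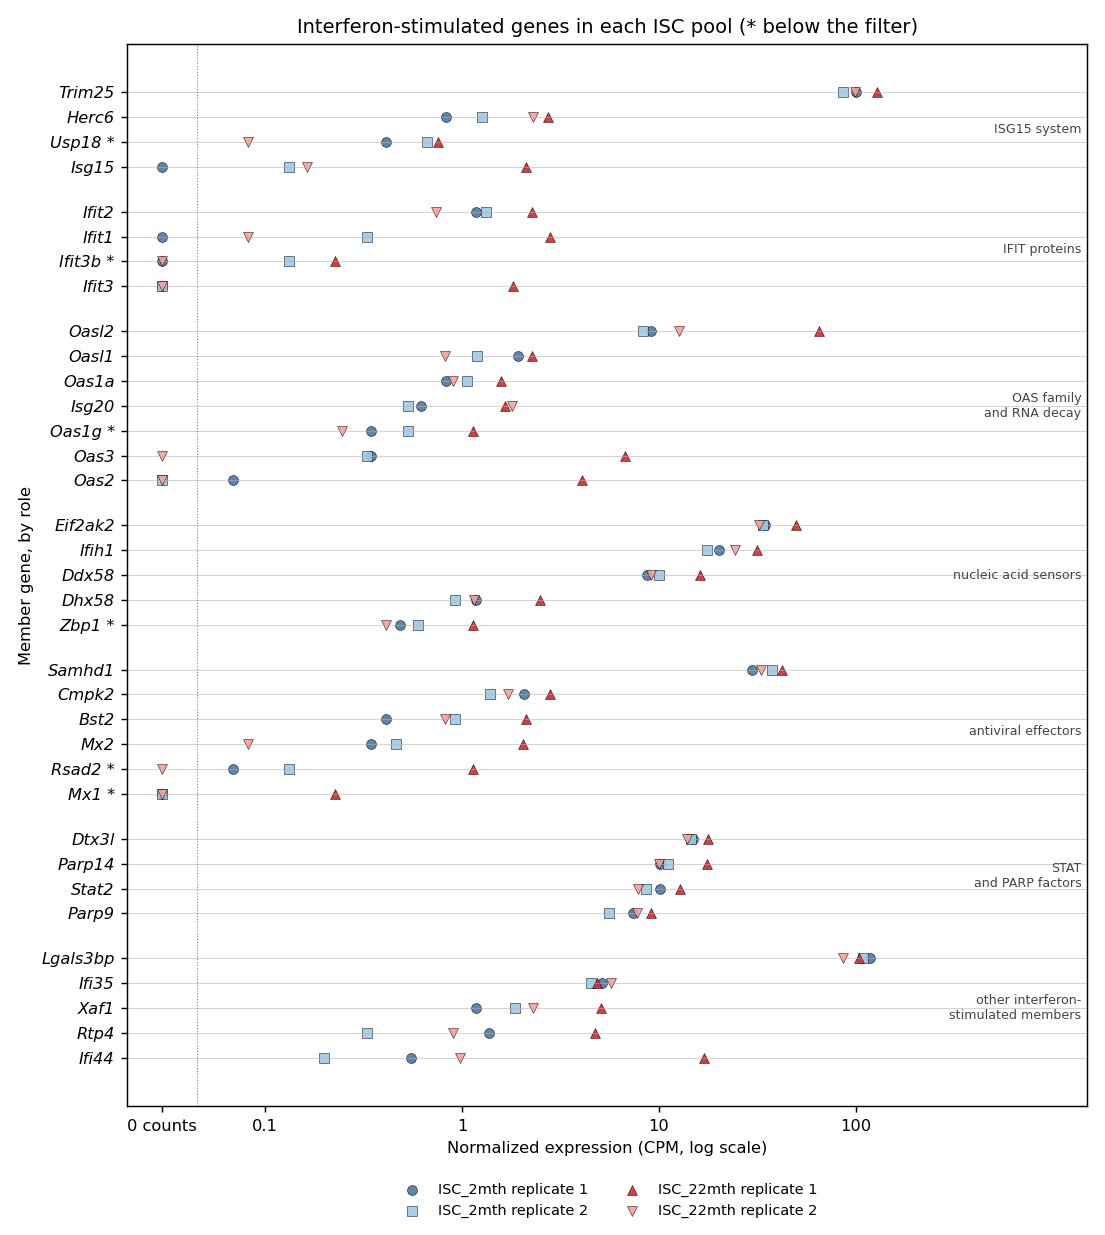
Normalized expression (CPM on a log axis, with 0 counts drawn at the left) of the 35 genes in the 4 libraries, grouped by role. Each row holds 1 gene and each symbol 1 pool of 5 animals; the dark red triangle of ISC_22mth replicate 1 is the rightmost symbol in 32 rows.

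**Figure D2:**
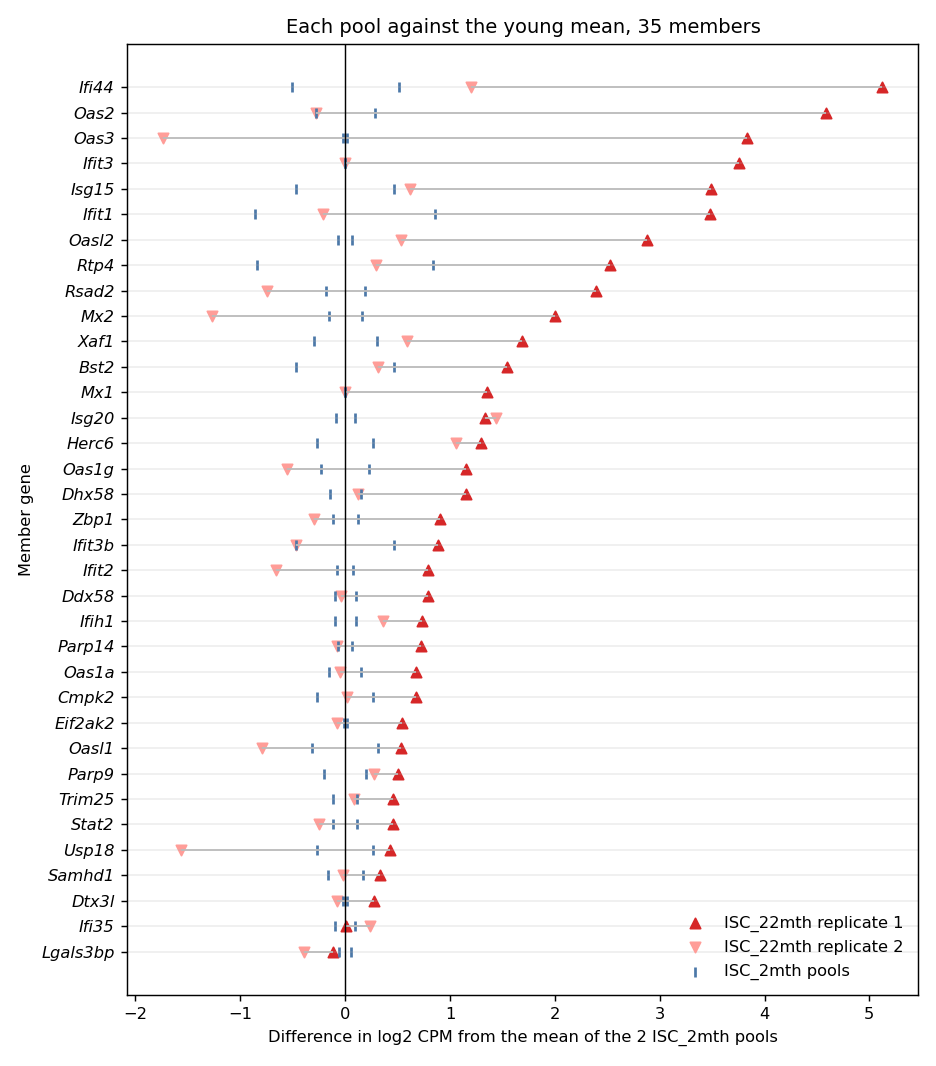
Difference in log2 CPM (prior count 2) of each old pool from the mean of the ISC_2mth pools for the 35 genes, with the young pools as blue ticks. In ISC_22mth replicate 1 the difference was above 1 for 17 genes and in ISC_22mth replicate 2 for 3 genes.

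In edgeR's quasi-likelihood test of age, adjusted over all 13692 genes, 2 of the 29 tested genes were called higher in old ISCs at FDR under 0.05 (Oasl2 and Ifi44), beside 1.63% of all genes. None was called lower, beside 0.628% of all genes. At an unadjusted p under 0.05, 5 of the 21 genes seen in a young library were higher (Herc6, Oasl2, Ifih1, Rtp4 and Xaf1), beside 9.26% of all genes, and 0 of the 29 were lower, beside 7.65%. A further 7 higher genes at that p had passed the filter only through the old pools, where they were high, and Ifi44 is one of them. Of the methods named in the study, limma voom called 1 higher (Oasl2) and 0 lower, and edgeR's likelihood ratio test called 7 higher, 2 of them among the 21, and 0 lower. DESeq2 called 0 in either direction. The median log2 fold change of the 29 was 0.56, that of the 21 seen in a young library was 0.39, and that of all genes was -0.00. The old libraries were both above the young ones for 8 of the 35 genes (24.0% of all genes) and both below for 1 (23.6% of all genes), shares that were near or under the background. The 8 were Isg15, Herc6, Oasl2, Isg20, Ifih1, Parp9, Ifi44 and Xaf1, and the 1 was Lgals3bp. For any 1 gene on its own, exact two-sided permutation of 2 against 2 libraries allows no p under 0.333.

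Without ISC_22mth replicate 1, 22 of the genes could be tested, 0 were called higher (2.96% of all genes) or lower (1.84% of all genes), 11 of 22 had a fold change above 0 and their median was 0.04, against 0.39 for the same 22 with all libraries. Without ISC_22mth replicate 2, 14 of 29 were called higher (3.51% of all genes) and 28 of 29 had a fold change above 0. That fit keeps ISC_22mth replicate 1 as its only old library, through which 7 of the 29 had passed the filter alone, and 8 of the 14 calls were among the 21 genes seen in a young library.

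**Figure D3:**
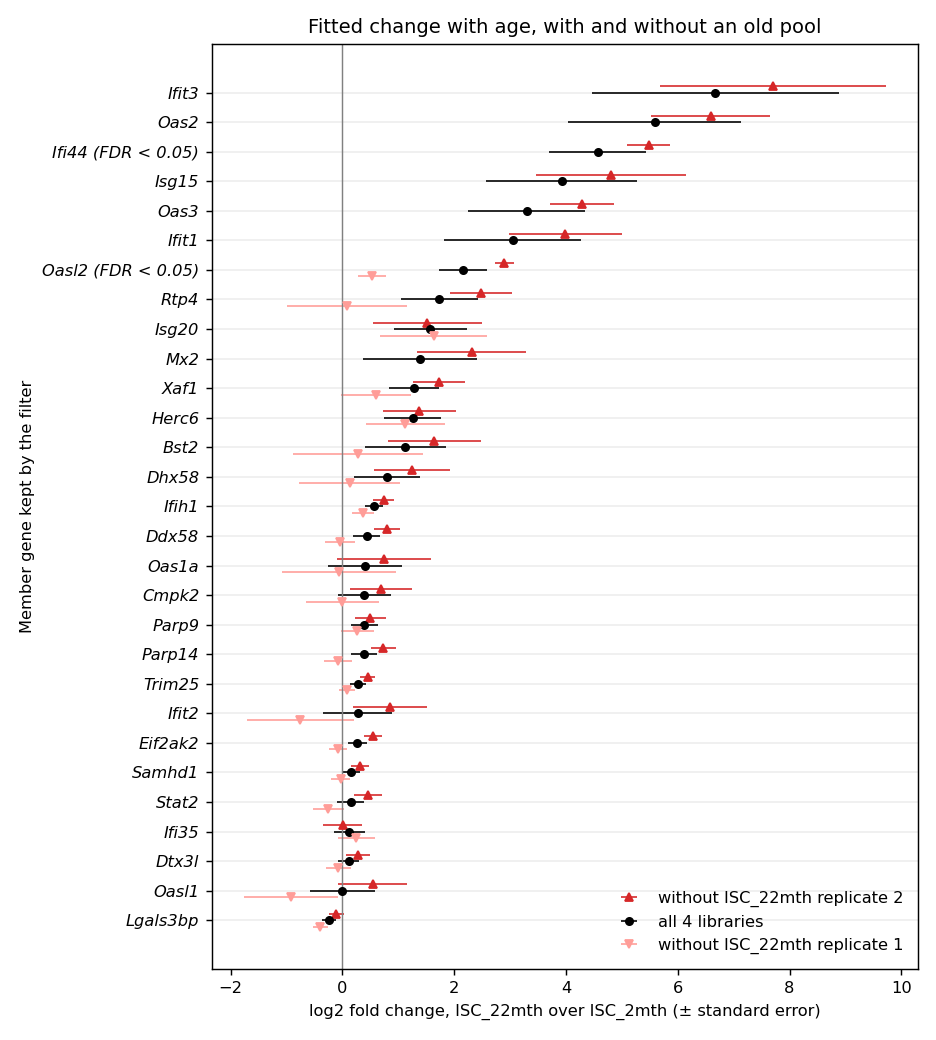
Fitted log2 fold change with age (ISC_22mth over ISC_2mth, ± standard error) of the 29 genes tested, with all 4 libraries (black), without ISC_22mth replicate 2 (red) and without ISC_22mth replicate 1 (pink, 22 genes). Oasl2 moved from 2.16 to 2.90 and to 0.54, whereas Isg20, which passed the filter only through the old pools, stayed between 1.52 and 1.63.

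The promoters of these genes are shown because the response element is what the list has in common by textbook knowledge and was not used to choose the genes. RefSeq windows on GRCm38.p6, from 250 bases before to 50 bases after each gene start, were matched by symbol for 26 of the 35. Parp14, Usp18, Rtp4, Oas2, Parp9, Dhx58, Zbp1, Mx1 and Mx2 had no entry. The core letters of the element, GAAANNGAAA on one strand or TTTCNNTTTC on the other, overlapping matches included, occurred in 13 of the 26 (50.0%), and in 3.99% of 27025 genes with a window. Wholly before the start they occurred in 10 of 26 (38.5%) against 3.46%. The letters of the gamma-activated site, TTCNNNGAA, occurred in 7 of 26 (26.9%) against 9.55%. Stretches are printed below 5′ to 3′ on the strand of the gene, with the matches and their overlaps in capitals, for 6 genes of 4 role groups whose match lay before the start.
Isg15, chr4:156200855-156200916, minus strand: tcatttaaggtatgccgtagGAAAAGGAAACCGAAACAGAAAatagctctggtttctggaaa
Ifit1, chr19:34640765-34640833, plus strand: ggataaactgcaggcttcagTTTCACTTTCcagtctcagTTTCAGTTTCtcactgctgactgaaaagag
Ifit3, chr19:34583353-34583436, plus strand: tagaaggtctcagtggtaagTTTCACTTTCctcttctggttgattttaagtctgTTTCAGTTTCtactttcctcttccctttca
Oas3, chr5:120777705-120777754, minus strand: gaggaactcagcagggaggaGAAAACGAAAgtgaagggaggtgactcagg
Bst2, chr8:71537567-71537622, minus strand: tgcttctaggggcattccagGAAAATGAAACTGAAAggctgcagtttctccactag
Rsad2, chr12:26456543-26456592, minus strand: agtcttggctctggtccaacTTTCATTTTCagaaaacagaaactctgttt

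The Isg15 stretch, from -98 to -37, holds 3 overlapping matches, and Ifit1 and Ifit3 each hold 2 separate matches on the opposite strand. The Ifit3b window holds the same 84 bases as the Ifit3 stretch. Genes with a match had a median log2 difference of 1.15 from the young mean in ISC_22mth replicate 1 (n = 13, range 0.45 to 3.83), and genes without one had 0.67 (n = 13, range -0.11 to 5.12). The ranges overlapped, and the gene with the highest value, Ifi44, had no match in its window, nor had Oasl2. In ISC_22mth replicate 2 the medians were -0.08 and 0.09.

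**Figure D4:**
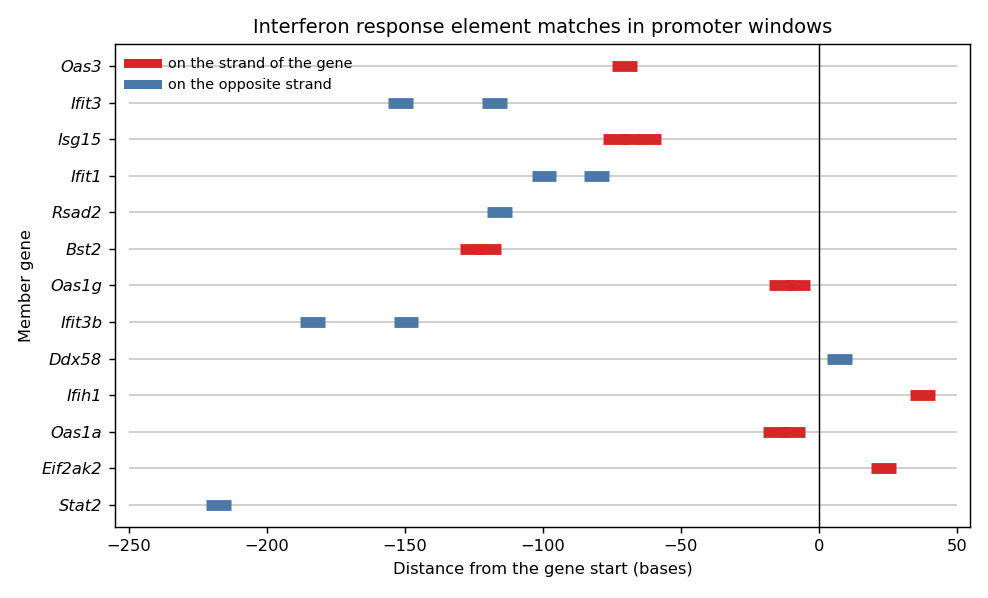
Positions of the interferon response element letters, in bases from the gene start, in the windows of the 13 genes with a match (grey lines span each window). Red bars lie on the strand of the gene and blue bars on the opposite strand, and 10 of the 13 genes have a match before the start.

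The ISG15 system attaches a ubiquitin-like tag to proteins. Isg15 is the tag, Herc6 the main mouse ligase for it, Usp18 removes it and also damps receptor signalling, and Trim25 is a ubiquitin ligase that activates the sensor RIG-I. Isg15 had 0 and 2 reads in the young pools and 28 and 2 in the old pools. Nearly all of its old signal was thus in ISC_22mth replicate 1, and ISC_22mth replicate 2 was no higher in reads than 1 young pool. The summed old level was 17.5 times the young level, with an exact 95% counting interval from 4.43 to 151, and the log2 fold change was 3.92 ± 1.35 (± standard error here and below), which edgeR's quasi-likelihood test did not call (FDR = 0.14). It was 3.04 without ISC_2mth replicate 1, and ISC_2mth replicate 2 held both young reads, so that no fold is given without it. Herc6 behaved differently. Its counts were 12 and 19 in the young pools and 36 and 28 in the old pools, or 0.827 and 1.26 against 2.72 and 2.29 CPM, so both old pools were about equally above both young pools. The log2 fold change was 1.26 ± 0.51, with FDR = 0.21 in the same edgeR test, and it was 1.13 without ISC_22mth replicate 1. Trim25, the most abundant of the group, was at 101 and 86.1 CPM in young and 128 and 98.9 CPM in old ISCs, with ISC_22mth replicate 2 between the young pools (log2 fold change 0.28 ± 0.14, FDR = 0.31 by edgeR). Usp18, below the filter, had 6, 10, 10 and 1 reads, in the order young replicates 1 and 2 and old replicates 1 and 2.

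IFIT proteins bind foreign RNA and block its translation. The 4 Ifit genes among the members lie in a region of chromosome 19, from Ifit2 at 34550694 to the end of Ifit1 at 34650009 (GENCODE vM21, GRCm38). Ifit3 had 24 reads in ISC_22mth replicate 1 and 0 in the other libraries. Against the limit that 0 reads in the young group allows (3 reads over the group), the summed old level was at least 9.31-fold higher. That level came from ISC_22mth replicate 1 alone, and the bound covers only counting error in the young group, not the spread between pools. The FDR was 0.13 by edgeR's quasi-likelihood test. Exact sharing of sequence limits this gene, since 51.2% of its 50-nt stretches also occur in other genes, mainly Ifit3b, and reads there could be split or dropped. Ifit3b itself had 0 and 2 reads in young and 3 and 0 in old ISCs. Ifit1 had 0 and 5 reads in the young pools and 37 and 1 in the old pools (log2 fold change 3.05 ± 1.23, FDR = 0.21 by edgeR). It had passed the filter only through ISC_22mth replicate 1. Without ISC_2mth replicate 1 the fold change was 2.11, and without ISC_2mth replicate 2, which held all 5 young reads, the gene was called (FDR = 0.029 by edgeR) but no young read remains to give a fold. ISC_22mth replicate 2 lay between the young pools for this gene. Ifit2 was more even, with 1.17 and 1.32 CPM in young ISCs against 2.27 and 0.736 CPM in old ISCs, so that 1 old pool lay above and the other below both young pools. Its log2 fold change was 0.28 with all libraries and -0.75 without ISC_22mth replicate 1.

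The 2-5A synthetases of the OAS family respond to double-stranded RNA by making the messenger that activates the ribonuclease RNase L, Oasl1 and Oasl2 are OAS-like proteins, and Isg20 is an RNA exonuclease. The 6 Oas and Oasl genes lie on chromosome 5. Oasl2 was the most abundant of the group and was called. Its counts were 133 and 126 in young and 863 and 155 in old ISCs, which gave 9.16 and 8.34 CPM against 65.2 and 12.7 CPM. Both old pools were above both young pools, but ISC_22mth replicate 1 stood far above ISC_22mth replicate 2, so the old mean of 38.9 CPM had a SD of 37.1 (n = 2 pools). The log2 fold change was 2.16 ± 0.43 with FDR = 0.011 by edgeR's quasi-likelihood test. Without ISC_22mth replicate 1 it was 0.54 with FDR = 0.23, and the gene was no longer called. limma voom called it (FDR = 0.037) and DESeq2 did not (FDR = 0.45).

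Oas2 and Oas3, the large synthetases, had nearly all of their reads in ISC_22mth replicate 1. Oas2 had 1 and 0 reads in young and 54 and 0 in old ISCs, a ratio of 62.8 with an exact 95% counting interval from 10.8 to 2527, and FDR = 0.068 by edgeR. Oas3 had 5 and 5 reads in young and 89 and 0 in old ISCs, so the old pools lay on either side of the young pools (log2 fold change 3.29 ± 1.04, FDR = 0.11 by edgeR). limma voom gave 0.66 for Oas3 (FDR = 0.87) and 2.95 for Oas2 (FDR = 0.54). Both genes had passed the filter only through ISC_22mth replicate 1. In edgeR's test both were called when either young library was left out, and without ISC_2mth replicate 1 no young read of Oas2 remains. Isg20 was again even between the old pools, with 9 and 8 reads in young and 22 and 22 in old ISCs, or 0.620 and 0.529 against 1.66 and 1.80 CPM. Its log2 fold change of 1.58 ± 0.66 did not pass (FDR = 0.23 by edgeR) and was 1.63 without ISC_22mth replicate 1 and 1.52 without ISC_22mth replicate 2. It had passed the filter only through the old pools. At the other end, Oasl1 had 28 and 18 reads in young and 30 and 10 in old ISCs, with a log2 fold change of -0.00. Oas1a (12, 16, 21 and 11 reads in the same order of libraries) and Oas1g (5, 8, 15 and 3 reads, below the filter) share 57.6% and 45.7% of their 50-nt stretches with other genes, mainly each other, and their values are uncertain for that reason.

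Among the nucleic acid sensors, Ifih1 (MDA5) was the member nearest to a call outside the OAS group and Ifi44. It had 20.3 and 17.6 CPM in young ISCs against 31.5 and 24.4 CPM in old ISCs, from 294, 266, 417 and 298 reads. The old pools were both the higher ones, with a log2 fold change of 0.56 ± 0.17 and FDR = 0.086 by edgeR's quasi-likelihood test. For Ddx58, which encodes RIG-I, the level was 8.68 and 9.99 CPM in young and 16.2 and 9.08 CPM in old ISCs. For Eif2ak2, which encodes the translation-blocking kinase PKR, it was 34.5 and 33.8 CPM in young and 49.9 and 32.3 CPM in old ISCs. In both genes ISC_22mth replicate 2 lay within or just below the young pools, and neither passed the test (FDR = 0.37 and 0.45 by edgeR). Eif2ak2 had the lowest fold change of the sensors, 0.27 ± 0.17, and the highest was that of Dhx58, the regulator LGP2, at 0.80 ± 0.59 from 17, 14, 33 and 14 reads. Without ISC_22mth replicate 1 the values were 0.37 for Ifih1, 0.13 for Dhx58, -0.04 for Ddx58 and -0.08 for Eif2ak2, and none was called. Without ISC_22mth replicate 2, edgeR called Ifih1 (FDR = 0.0029), Ddx58 (FDR = 0.020) and Eif2ak2 (FDR = 0.015). Zbp1, which binds Z-form nucleic acid, had between 5 and 15 reads and did not pass the filter.

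The antiviral effectors include the Mx GTPases, viperin (Rsad2) with its neighbour Cmpk2 on chromosome 12, the particle-trapping protein tetherin (Bst2) and the dNTP hydrolase Samhd1. None of the 4 tested was called. Mx2 had the highest fold change, 1.39 ± 1.01 (FDR = 0.52 by edgeR, and 0.30 with FDR = 0.93 by limma voom), from 5 and 7 reads in young and 27 and 1 in old ISCs. Its old pools therefore lay on opposite sides of the young pools, and it passed the filter only through ISC_22mth replicate 1. Samhd1 had the lowest, 0.16 ± 0.16 (FDR = 0.66 by edgeR), with 29.8 and 37.6 CPM in young and 42.1 and 33.0 CPM in old ISCs. Bst2 had 6 and 14 reads in young and 28 and 10 in old ISCs, and Cmpk2 had 30 and 21 against 37 and 21. Both were highest in ISC_22mth replicate 1 and had ISC_22mth replicate 2 within the young range. Rsad2 had 1 and 2 reads in young and 15 and 0 in old ISCs, a ratio of 5.82 with an exact 95% counting interval from 1.65 to 31.4, and Mx1 had 3 reads in ISC_22mth replicate 1 and 0 elsewhere.

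Stat2 is a signal transducer of the pathway, Parp9 and Dtx3l act as a complex that supports STAT signalling, and Parp14 is an ADP-ribosyltransferase. All 4 were highest in ISC_22mth replicate 1 and none was called. Parp9 had the highest fold change, 0.39 ± 0.24 (FDR = 0.44 by edgeR), with 7.37 and 5.56 CPM in young and 9.14 and 7.77 CPM in old ISCs. Dtx3l had the lowest, 0.11 ± 0.18 (FDR = 0.82 by edgeR), with 14.9 and 14.5 CPM against 17.8 and 13.9 CPM. These neighbours on chromosome 16 share 458 bp of exon on opposite strands, and reads there cannot be told apart unless the counting used strand. Stat2 was at 10.1 and 8.60 CPM in young and 12.8 and 7.85 CPM in old ISCs, and Parp14 at 10.1 and 11.1 against 17.6 and 10.1 CPM. In both, ISC_22mth replicate 2 was below the young pools.

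Of the 5 remaining genes, Ifi44, a cytoplasmic protein induced by interferon, gave the second call. It had 8 and 3 reads in young and 224 and 12 in old ISCs, or 0.551 and 0.198 CPM against 16.9 and 0.981 CPM. The old pools both lay above the young pools, but they differed from each other far more than the young pools did, and the old mean of 8.95 CPM had a SD of 11.3 (n = 2 pools). The log2 fold change was 4.57 ± 0.87 and passed edgeR's quasi-likelihood test (FDR = 0.0091). It was not called by limma voom (3.59, FDR = 0.26) or DESeq2 (FDR = 0.22). Without ISC_22mth replicate 1 the gene did not pass the filter. Xaf1, an antagonist of the apoptosis inhibitor XIAP, had 17 and 28 reads in young and 67 and 28 in old ISCs (log2 fold change 1.28 ± 0.45, FDR = 0.15 by edgeR). The value was 0.59 without ISC_22mth replicate 1 (FDR = 0.69) and 1.74 with a call without ISC_22mth replicate 2 (FDR = 0.0084). Rtp4 had 20 and 5 reads in young and 63 and 11 in old ISCs, and its young pools alone differed by more than 2-fold in CPM. Its log2 fold change of 1.74 ± 0.69 did not pass (FDR = 0.20 by edgeR) and depended on the library left out. It was 3.07 with a call without ISC_2mth replicate 1 (FDR = 0.028), 1.04 without ISC_2mth replicate 2, 0.08 without ISC_22mth replicate 1 and 2.48 with a call without ISC_22mth replicate 2 (FDR = 0.00054). Lgals3bp, a secreted glycoprotein, had the lowest fold change of all, with 117 and 108 CPM in young and 104 and 85.9 CPM in old ISCs (log2 fold change -0.25 ± 0.13, FDR = 0.34 by edgeR). It was the only gene of the 35 with both old pools below both young pools. Ifi35 was level, with 75 and 68 reads in young and 64 and 70 in old ISCs.

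Per kilobase of exon, the young level was highest for Lgals3bp (39.6 CPM per kb), Trim25 (16.2), Eif2ak2 (6.68), Samhd1 (3.68) and Ifi35 (2.80), and it was 0 for Ifit3 and Mx1. Oasl2 rose from 1.37 CPM per kb in young to 6.11 CPM per kb in old ISCs on average, which put it between Eif2ak2 (8.04) and Samhd1 (4.10) in the old means. Its old mean rested on 1 pool, as given above. Of the 10 genes that were above the young mean by more than 2 on the log2 scale in ISC_22mth replicate 1, 7 were under 0.1 CPM per kb in young ISCs, and Oasl2 had the highest young level of the 10.

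Further interferon pathway genes were examined in lists of 111, of which 73 passed the filter, 5 were called higher (1.63% of all genes) and 1 lower (0.628% of all genes). Of the 111, 44 were other interferon-stimulated genes, downstream like the members, and 2 of the 5 higher calls were from that list. The counts by list below are read beside the same shares, and the lists are small. Of 21 interferon ligands, 20 were at 0 in all 4 libraries, which at this depth does not show absence. The exception was Ifnk, a keratinocyte interferon, with 17 and 11 reads in young and 8 and 14 in old ISCs. All 9 receptors and receptor kinases passed the filter and 0 were called by edgeR. Ifnar1 was at 19.2 and 22.2 CPM in young and 19.9 and 19.4 CPM in old ISCs, Ifnar2 had 25 and 21 reads against 41 and 17, and the interferon lambda receptor chain Ifnlr1 had 31 and 49 against 45 and 32. These 3 receptor chains overlapped between ages, with Ifnar2 and Ifnlr1 highest in ISC_22mth replicate 1.

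Of 10 further STAT and IRF factors, 9 passed the filter, 0 were called higher and 1, Irf1, was called lower. Irf1 encodes an interferon-inducible activator and had a log2 fold change of -0.78 ± 0.19 with FDR = 0.034 by edgeR's quasi-likelihood test. Its difference from the young mean was -0.66 in ISC_22mth replicate 1 and -0.89 in ISC_22mth replicate 2, so both old pools were low. The call was lost without ISC_22mth replicate 2 (FDR = 0.057), ISC_2mth replicate 1 (FDR = 0.071) or ISC_2mth replicate 2 (FDR = 0.14), with log2 fold changes between -0.84 and -0.67. Irf9 had 110 and 110 reads against 142 and 104 (log2 fold change 0.37 ± 0.22, FDR = 0.42 by edgeR), and Irf7, the factor that amplifies interferon production, had 30 and 22 against 40 and 13. Both were highest in ISC_22mth replicate 1, as were 5 of the 10 genes of this list.

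Of 19 genes of nucleic acid sensing and interferon induction, 16 passed the filter, 3 were called higher and 0 lower. Aim2, a cytosolic DNA sensor, had 1.58 and 2.58 CPM in young against 8.24 and 6.54 CPM in old ISCs (log2 fold change 1.82 ± 0.32, FDR = 0.0045 by edgeR). Tlr3, the endosomal receptor for double-stranded RNA, had 23.4 and 20.2 against 33.7 and 33.4 CPM (0.63 ± 0.15, FDR = 0.031 by edgeR), and the ribonuclease H2 subunit Rnaseh2b had 20.7 and 19.6 against 27.4 and 34.0 CPM (0.61 ± 0.16, FDR = 0.048 by edgeR). These 3 were higher in both old pools, and all 3 were still called without ISC_22mth replicate 1. Aim2 also kept its call without any other library. Tlr3 lost it without ISC_2mth replicate 1 (FDR = 0.053) or ISC_2mth replicate 2 (FDR = 0.20), and Rnaseh2b without ISC_2mth replicate 1 (FDR = 0.14), ISC_2mth replicate 2 (FDR = 0.16) or ISC_22mth replicate 2 (FDR = 0.15). Of the 8 negative regulators, 7 passed the filter and 0 were called by edgeR.

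A list of 44 other interferon-stimulated genes had 31 that passed the filter, of which 2 were called higher and 0 lower. The membrane protein Ifitm3, which blocks virus entry, had 43.1 and 31.4 CPM in young against 71.2 and 57.2 CPM in old ISCs (log2 fold change 0.79 ± 0.16, FDR = 0.012 by edgeR). Trim30a, a ubiquitin ligase family member, had 5 and 4 reads in young against 61 and 15 in old ISCs (3.23 ± 0.71, FDR = 0.021 by edgeR), and it passed the filter only through the old pools. Ifitm3 was still called without ISC_22mth replicate 1 (0.62) but not without ISC_2mth replicate 2 (0.57, FDR = 0.088), and Trim30a was not called without ISC_22mth replicate 1 (1.98, FDR = 0.43). Of the 42 genes of this list with a read, 25 were highest in ISC_22mth replicate 1, and the median difference from the young mean was 0.47 there and 0.05 in ISC_22mth replicate 2.

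**Figure D5:**
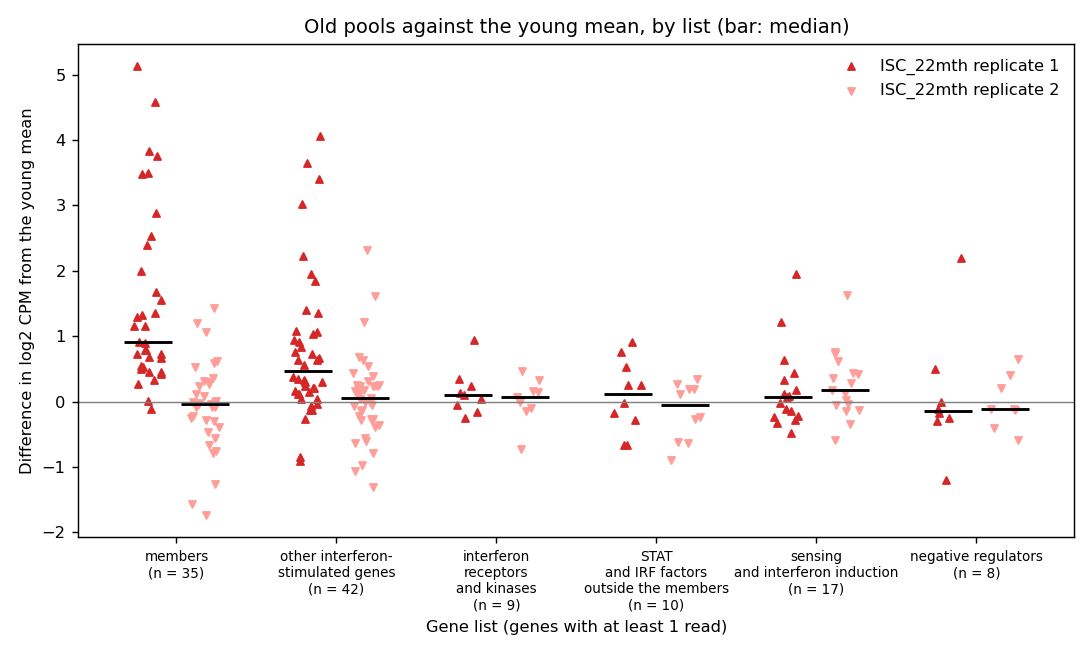
Difference in log2 CPM from the young mean in each old pool for the genes of each list with at least 1 read, with bars at the medians. The medians in ISC_22mth replicate 1 were 0.91 for the 35 interferon-stimulated genes and 0.47 for the other interferon-stimulated genes, and between -0.14 and 0.12 for the remaining lists drawn.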

How the data were processed

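RNA of sorted ISCs was amplified by SPIA (NuGen) and sequenced single-end in 4 libraries. The authors trimmed reads with Trimmomatic 0.30, aligned them to GRCm38 with STAR 2.4.2a, counted them over GENCODE exons with featureCounts and deposited raw counts per gene, neither normalized nor filtered. Strand setting and treatment of multiply mapping reads are not given in the sources used here. SPIA reads carry no molecular identifiers, so intervals cover counting error only.

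Genes above 5 reads and 1 CPM of the unnormalized total in any library were kept (13692 of 52459), TMM-normalized and compared between ages with edgeR 4.0.16 in R 4.3.3 (glmQLFit and glmQLFTest, no covariate, Benjamini-Hochberg over all genes kept, FDR threshold 0.05). Both methods named in the study, limma 3.58.1 voom with sample quality weights and edgeR's likelihood ratio test, were alternatives, as were DESeq2 1.42.0, other scalings and filters, the replicate number as a block and leaving out each library. Log2 CPM used a prior count of 2, and standard errors came from the log2 fold change and the F value. The fits were tested on simulated data. Positions, exon lengths and shared 50-nt stretches came from GENCODE vM21, matched by symbol, and promoter windows from RefSeq. All 35 members were accounted for, and values in every library were given for called members and for the highest and lowest fold change of each role group. Named pathway genes were those called and a set of receptor, STAT and IRF genes, not all of which are reported here. Values of further members were given so that all could be followed. The members and lists were chosen with earlier results of these data known. Replicate libraries differed by more than sampling noise and each was counted separately.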

Additional observations from a re-analysis of the deposited data

How the results depend on the processing

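The number of interferon-stimulated genes called higher in old ISCs was 2 of 29 in the test as reported, beside 1.63% of all genes. Of the same 29 it was 1 with limma voom (Oasl2; 1.78% of all genes), 0 with DESeq2 (1.07%), 7 with the likelihood ratio test (2.74%), 6 with total counts (0.701%, with 33.1% of all genes called lower) and 6 with the replicate number as a block (2.97%). It was 4 of 33 with TMM without mitochondrially encoded genes (1.61%), where the smaller library totals also let more genes pass the filter (16487), and 9 of 35 with no filter on low counts (1.44%). Of the 21 genes seen in a young library, the number was 1 in the test as reported, 1 with total counts, 2 with the likelihood ratio test, 2 with the block and 3 with no filter, and the other calls were of genes that passed the filter only through the old pools or not at all. It was between 0 (without ISC_22mth replicate 1) and 14 (without ISC_22mth replicate 2) when a library was left out, where the lone library of an age is assumed to vary like the others. The number called lower was 1 with total counts (Lgals3bp, log2 fold change -0.74, FDR = 0.00050) and 0 in the other fits. The number with both old pools above both young pools was 8, beside 24.0% of all genes, and 3 with total counts. It was between 7 and 27 when a library was left out, which leaves 1 age with 1 pool and makes the condition easier to meet. The 27 counts genes with ISC_22mth replicate 1 alone above both young pools. Shares over all genes are not given here for total counts or with a library left out. The 24.0% is therefore not the background of those numbers. The median log2 fold change was 0.56, between 0.04 and 0.86 when a library was left out, and 0.07 with total counts, where the median of all genes was shifted to -0.49 and 12 of the 29 genes changed sign. In an alternative chosen after seeing the data, ISC_22mth replicate 1 was the highest library for 23 of 35 genes with total counts and for 32 with TMM without mitochondrially encoded genes or with DESeq2 size factors. The shares over all genes under these scalings are not given here. Same-numbered pools did not deviate together (correlation -0.00015), so the block is not a pairing and calls gained with it are not read. Depth limits the 6 genes below the filter, which had at most 15 reads in a library.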
